A study of Mus musculus with 10 samples.

Results

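Genes of the Wnt and Notch signaling pathways were examined in sorted tuft cells of the inflamed mouse pancreas and in the rest of its sorted epithelium. The set holds every gene of the deposited table whose symbol belongs to the Wnt ligands, Frizzled receptors, Lrp5 and Lrp6, Axin, Apc, TCF/LEF, Dishevelled, Rnf43 and Znrf3, Lgr, Dkk and Sfrp families, or to the Notch receptors, Delta and Jagged ligands, Hes2 to Hes7, Hey, Rbpj, Mastermind, Fringe and Numb families. It came to 46 of the 12160 listed genes, 29 in the Wnt pathway and 17 in the Notch pathway. The GENCODE vM1 annotation of mm9 holds 82 protein-coding genes with such symbols, and the other 36, among them Notch1, Lrp5 and Lef1, were not analysed here. Since the authors kept only genes whose RPKM (reads scaled to the length of the transcript and the size of the library) varied between samples, a low gene could be listed only if it was high in some library. Counts over the members are therefore descriptions of listed genes, not of the pathways as a whole.

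Pancreatitis was induced in wild type male CD-1 mice with 4 cycles of 250 μg/kg caerulein, a cholecystokinin ortholog that injures acinar cells; the labels name the strain as Mixed as well as CD1, and the sources used here give no age. Cells negative for Cd45 (a leukocyte surface protein) and positive for EpCAM (an epithelial surface protein) were sorted into Siglec f+ tuft cells and Siglec f-neg non-tuft epithelial cells. Each group has 5 Smart-Seq2 libraries of 100 sorted cells, every tuft library coming from an individual mouse. Both populations were sorted out of the pancreata of 5 mice, so the groups share animals, and the sources used here do not tell which tuft and non-tuft libraries belong to the same mouse. There were no untreated mice among the sequenced libraries, and both groups carry the caerulein injury. The paper allowed a short recovery of varying length after the cycles, and the sources used here do not give it by library.

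Values are levels on the scale log2(RPKM + 1) after the quantile normalization of the authors, so levels of different genes can be compared per length. Genes without signal share the minimum of their library. This floor was 0.17 for non-tuft library 2 and 0 for each of the remaining 9. Gapdh, which every cell uses, was at the floor in 5 of the 10 libraries, so a listed 0 does not show that a gene was silent. Read counts were not used here and the depth of each library is unknown. In bulk RNA from sorted cells, fewer cells of a type and less RNA per cell cannot be told apart.

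The libraries matched their labels at the level of marker genes, with reservations. Of 19 listed tuft markers 18 were called higher in tuft cells, and of 20 acinar markers 17 were called lower. Acinar RNA was uneven among tuft libraries: the summed acinar marker level on the linear scale ran from 1592 in tuft library 5 to 81818 in tuft library 4, against 103236 to 141068 in the non-tuft libraries. Tuft marker levels were uneven among non-tuft libraries. Dclk1, a kinase gene, was at 6.84, 8.46 and 7.14 in non-tuft libraries 1, 2 and 5. It was at 2.88 and 0 in non-tuft libraries 3 and 4, against 10.68 to 12.73 in tuft libraries. The summed tuft marker level was 392, 735 and 684 in non-tuft libraries 1, 2 and 5. It was 228 and 241 in non-tuft libraries 3 and 4, against 5242 to 13604 in tuft libraries. The authors report Dclk1 as higher in tuft cells but not specific to them. Siglecf, the gene of the sort marker, was above the floor only in library 2 of the non-tuft group (1.61). The part of tuft RNA in these levels was not tested. Fibroblast markers stood out in both libraries numbered 5. The collagen and proteoglycan genes Col1a1, Col1a2, Col3a1, Dcn and Lum were all above the floor there, at 4.93 to 8.34 in non-tuft library 5 and 3.58 to 6.84 in tuft library 5, and all 5 were listed at 0 in tuft libraries 1 to 4. Of the other cell types, 2 of 13 ductal markers were called higher and 2 lower, 5 of 14 islet markers lower and 0 higher, 1 of 4 endothelial markers (Esam) higher and 1 of 8 leukocyte markers (Ptprc) higher. Ptprc is the gene of Cd45, for which both groups were sorted as negative. It was at 2.74 to 4.33 in tuft libraries and at 0 to 1.93 in non-tuft libraries. Of the 11 listed fibroblast and stellate markers, 2 (Fn1 and Sparc) were called lower and 0 higher. These differ from the collagen genes in being above the floor in every non-tuft library, with Sparc at 3.89 to 5.37 and Fn1 at 2.46 to 4.19 in non-tuft libraries 1 to 4. Vim, which was not called, reached 5.30 in non-tuft library 1, and Postn reached 2.70 in non-tuft library 2. Among tuft libraries 1 to 4, Sparc was at 2.23 in library 4 and Vim at 0.69 in library 3. Over the fibroblast and stellate list, the summed level was 0 to 318 in tuft libraries and 27.2 to 1024 in non-tuft libraries.

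In the Wnt pathway, secreted Wnt ligands bind Frizzled receptors and the coreceptors Lrp5 and Lrp6. Dishevelled proteins then restrain a destruction complex built on Apc and Axin, and β-catenin accumulates and acts with TCF/LEF factors in the nucleus. Lgr receptors bind R-spondins and counter Rnf43 and Znrf3, ubiquitin ligases that remove Frizzled receptors from the cell surface. In the Notch pathway, Delta and Jagged ligands on 1 cell bind Notch receptors on its neighbor, and the released intracellular domain joins Rbpj and Mastermind proteins to switch on Hes and Hey repressors. In the intestine, Lgr5 marks stem cells and Notch signaling decides between absorptive and secretory fates, tuft cells being among the products of those stem cells.

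Tuft cells differed from non-tuft epithelial cells at a minority of these genes. The Wnt ligand Wnt5a, the R-spondin receptor Lgr5 and the Notch ligands Jag2 and Dll1 were higher in tuft cells, by 5.00-fold to 20.7-fold on the RPKM + 1 scale. In the Notch pathway, the repressor gene Heyl was called lower and listed at 0 in every tuft library, and the receptor Notch2 and the coactivator Maml2 were lower with an adjusted p under 0.05. The Wnt ligand Wnt4 was lower too. The evidence was uneven: Wnt4 did not pass in 13 of 17 alternative settings, Notch2 in 12 of 18, Lgr5 in 6 of 18 and Maml2 in 3 of 17. The remaining 38 members, which include all 8 Wnt receptors and coreceptors and the scaffold genes Apc, Axin1 and Axin2 of the destruction complex, did not pass the test.

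The test was limma's moderated test over all 12160 genes with Benjamini-Hochberg adjustment. Calls required a fold change over 4 together with an adjusted p under 0.05, and "passed" refers to the adjusted p alone. Of the 46 members, 4 were called higher (4.32% of all genes were) and 1 was called lower (3.99% of all genes). Together 10.9% of the members were called, beside 8.31% of all genes. By the adjusted p alone, 4 passed as higher (6.19% of all genes) and 4 as lower (5.55% of all genes), or 17.4% of the members beside 11.7% of all genes. Tuft and non-tuft values were fully separate for 7 members, or 15.2% beside 11.2% of all genes. These shares lie near those of all genes, so the count of changed members is not particular to the pathways. The median difference over the members was -0.01, and over all genes it was 0.02. Without both libraries numbered 5, 3 members were called higher and 1 lower.

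**Figure D1:**
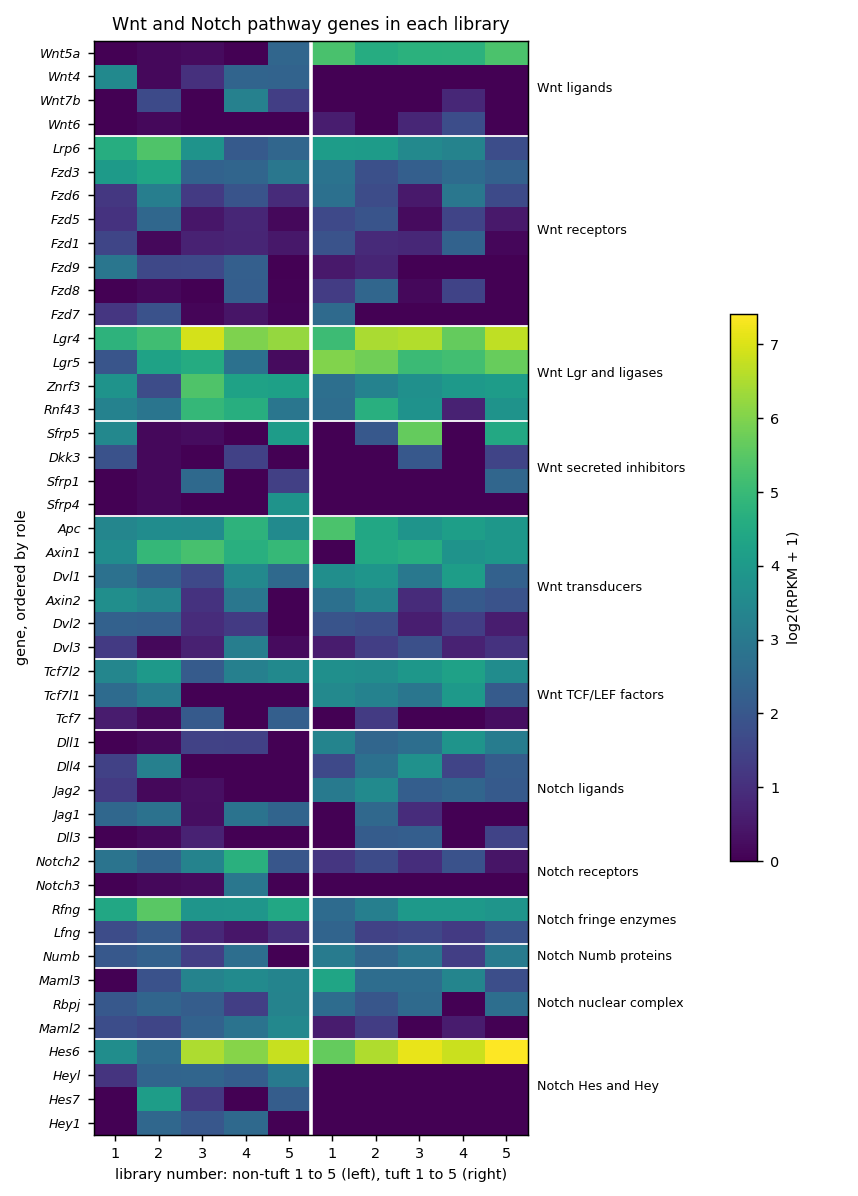
Level of each of the 46 members (rows, ordered by pathway role) in each of the 10 libraries (columns, non-tuft 1 to 5 and tuft 1 to 5), with color for log2(RPKM + 1) from 0 upward. Wnt5a, Lgr5, Dll1 and Jag2 are brighter in the tuft libraries, Heyl, Hes7 and Hey1 are dark in all 5 tuft libraries, and Lgr4 and Hes6 are bright in both groups.

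Promoter sequences are shown for members of the Notch pathway that moved between the groups and had a matched window, to set the ligands that rose beside the receptor and coactivator that fell. They are the 250 bases before the annotated start, from RefSeq (GRCm38.p6), whereas gene positions below are in mm9. Windows matched 31 of the 46 members; Wnt5a, Lgr5 and Heyl were not matched. Capitals mark the core TGGGAA that the Notch cofactor Rbpj binds, or its reverse complement, and the TCF/LEF core CTTTGA was searched in the same way on both strands. The letters of the cores do not overlap.
Jag2 (chr12:112929496-112929745, minus strand): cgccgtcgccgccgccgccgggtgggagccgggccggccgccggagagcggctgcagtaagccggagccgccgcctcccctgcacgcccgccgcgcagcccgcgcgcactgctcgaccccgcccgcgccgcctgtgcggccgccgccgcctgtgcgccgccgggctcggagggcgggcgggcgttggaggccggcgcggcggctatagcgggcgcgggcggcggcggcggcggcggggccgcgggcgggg
Dll1, first start (chr17:15375824-15376073, minus strand): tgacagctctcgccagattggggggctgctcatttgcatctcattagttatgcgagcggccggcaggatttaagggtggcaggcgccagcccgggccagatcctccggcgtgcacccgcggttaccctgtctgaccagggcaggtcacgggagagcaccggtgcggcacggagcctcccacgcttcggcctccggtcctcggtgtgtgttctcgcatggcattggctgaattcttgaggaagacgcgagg
Dll1, other start (chr17:15376933-15377182, minus strand): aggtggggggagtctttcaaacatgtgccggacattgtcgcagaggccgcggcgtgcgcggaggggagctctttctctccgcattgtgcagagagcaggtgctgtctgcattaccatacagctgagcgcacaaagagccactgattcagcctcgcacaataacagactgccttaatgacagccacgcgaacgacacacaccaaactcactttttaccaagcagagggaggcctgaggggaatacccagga
Notch2 (chr3:98013288-98013537, plus strand): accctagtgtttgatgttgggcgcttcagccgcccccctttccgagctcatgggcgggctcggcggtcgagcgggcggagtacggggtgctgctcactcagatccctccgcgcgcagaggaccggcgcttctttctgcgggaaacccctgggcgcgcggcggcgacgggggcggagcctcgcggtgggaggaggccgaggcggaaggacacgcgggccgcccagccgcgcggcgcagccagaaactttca
Maml2, other start (chr9:13662210-13662459, plus strand): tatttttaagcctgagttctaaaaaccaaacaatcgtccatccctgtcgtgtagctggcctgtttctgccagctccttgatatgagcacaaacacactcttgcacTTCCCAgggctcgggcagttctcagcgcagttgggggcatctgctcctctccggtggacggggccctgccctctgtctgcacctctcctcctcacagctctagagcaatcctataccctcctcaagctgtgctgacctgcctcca

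Neither core was found in the windows of Jag2, Dll1 or Notch2, nor in the first Maml2 window (chr9:13297708-13297957, plus strand), which is not printed. The Rbpj core lay 145 bases before the second Maml2 start, on the opposite strand. GC content of the printed windows ran up to 87.2%, in the Jag2 window. Of the 31 matched members, 7 had the Rbpj core in at least 1 window (22.6%, against 23.8% of 9112 listed genes with windows), namely Dvl1, Hes7, Lfng, Maml2, Maml3, Rbpj and Tcf7l1. The TCF/LEF core was found for 1 matched member, Fzd1 (3.23%, against 13.0% of listed genes). Over all 32851 windows of this length, 21.6% held the Rbpj core and 13.8% the TCF/LEF core. A match is a run of letters and not a site of binding.

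Among the Wnt ligands, 4 were listed, and Wnt5a stood apart. Wnt5a encodes a secreted ligand best known for β-catenin independent signaling and lies on chromosome 14, 29317936 to 29340633 (mm9, protein coding). In tuft libraries 1 to 5 its level was 5.28, 4.58, 4.74, 4.77 and 5.32. In non-tuft libraries 1 to 5 it was 0, 0.17, 0.22, 0 and 2.44, at the floor in 3 of them. All tuft libraries were above all non-tuft libraries, and only non-tuft library 5 came above 1. The difference was 4.37 on the log2 scale (standard error 0.50, adjusted p = 1.18e-04, limma), or 20.7-fold on the RPKM + 1 scale. With each library left out in turn it stayed between 4.23 and 4.84.

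Fibroblasts also express Wnt5a, and non-tuft library 5, with its fibroblast genes, was the non-tuft library with the highest Wnt5a. It also had the highest mean log2 level of the tuft markers in its group, 3.81 against 0.87 to 3.45. Their summed level was instead highest in non-tuft library 2, at 735 against 684 in non-tuft library 5. Within the non-tuft group, Il25, Gfi1b and Il17rb were above the floor only in library 5 (2.75, 2.61 and 1.99). Siglecf and Chat were above it only in library 2 (1.61 and 2.07). The part of fibroblast or tuft RNA in the Wnt5a value of non-tuft library 5 was not tested. In tuft libraries 1 to 4, where Col1a1, Col1a2, Col3a1, Dcn and Lum were all listed at 0, Wnt5a was between 4.58 and 5.28. Of the other fibroblast markers, Sparc was at 2.23 in tuft library 4 and Vim at 0.69 in tuft library 3. The part of fibroblast RNA in the tuft values of Wnt5a was not tested either. Without both libraries numbered 5 the difference was 4.75 (adjusted p = 1.20e-04, limma). The mean level of Wnt5a in tuft cells was at percentile 85.4 of all listed genes. The annotated noncoding gene Gm2670 overlaps it on the other strand, and reads of a library preparation that does not mark strand cannot be told apart there.

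**Figure D2:**
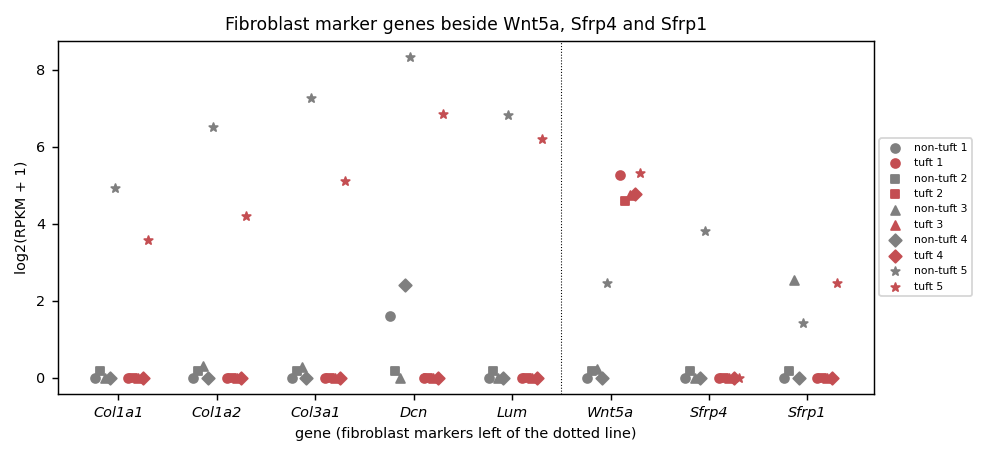
Level, as log2(RPKM + 1), of 5 fibroblast marker genes and of Wnt5a, Sfrp4 and Sfrp1 in each library (gray, non-tuft; red, tuft; marker shape, library number; all points of a gene at 0 overlap). These 5 markers do not exceed 2.41 outside the libraries numbered 5. Wnt5a is between 4.58 and 5.32 in all tuft libraries, and Sfrp4 is above the floor only in non-tuft library 5.

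Wnt4, a ligand with roles in epithelial and kidney development (chromosome 4, 136833404 to 136855641), had every tuft value listed at 0. Its non-tuft values were 3.51, 0.17, 1.03, 2.38 and 2.37, the second of which is the floor of that library. The adjusted p was 0.0433 (limma), and no fold change is given because the tuft group is entirely at 0. Wnt4 did not pass with the floor of every library set to 0 (adjusted p = 0.0540) or with the replicate number as a block (adjusted p = 0.0555). Nor did it pass, at adjusted p of 0.0797 to 0.0916, when any tuft library, or any of non-tuft libraries 1, 4 and 5, was left out, and it passed without non-tuft library 2 or 3. The highest Wnt4 value was in non-tuft library 1, whose summed islet marker level of 22134 was also the highest (147 to 2724 in the other non-tuft libraries); the part of islet RNA in the difference was not tested.

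Wnt7b was above the floor in 3 non-tuft libraries, at up to 3.25, and in 1 tuft library at 0.82 (adjusted p = 0.273, limma). Wnt6 had no value above the floor in the non-tuft group and reached 1.74 in tuft library 4 (adjusted p = 0.412). It was the 1 member with the whole non-tuft group at the floor, beside 2.93% of all genes. The whole tuft group was at the floor for 6 members, Wnt4, Sfrp4, Notch3, Heyl, Hes7 and Hey1, beside 4.6% of all genes. A gene with 1 group wholly at the floor could be listed only through the other group. Its test is therefore not independent of the authors' filter on RPKM variance. The filter also bears on Jag2 and Dll1, which were at most 1.25 and 1.47 in non-tuft libraries. It bears on Maml2 and Notch2 too, which were at most 1.35 and 1.86 in tuft libraries. These members were listed mainly through their higher group, so their tests are not independent of the filter either.

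**Figure D3:**
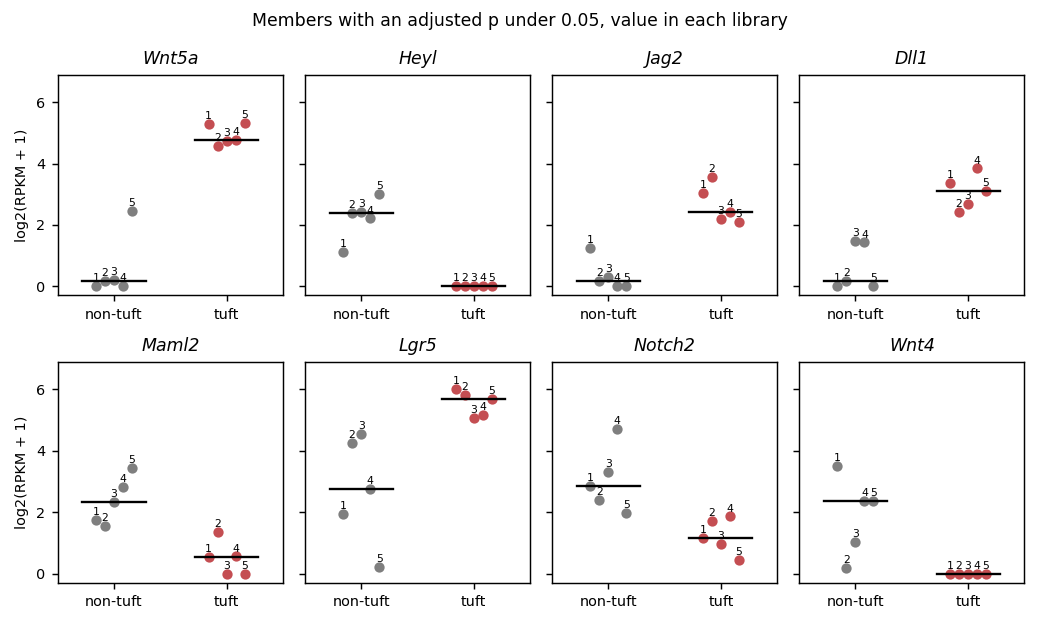
Level, as log2(RPKM + 1), of the 8 members with an adjusted p under 0.05 in each library (points, numbered by library; horizontal lines, group medians). Wnt5a, Jag2, Dll1 and Lgr5 are higher in all tuft libraries than in any non-tuft library, and Heyl and Wnt4 are listed at 0 in all 5 tuft libraries.

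None of the 8 listed receptors and coreceptors passed the test. Their differences ran from -1.42 for Fzd9 to 0.59 for Fzd8, and the smallest adjusted p was 0.0971 (limma), that of Fzd9. Lrp6, the coreceptor, had the highest mean level of this class, at 3.35 ± 0.96 (SD, n = 5) in tuft cells and 3.67 ± 1.39 (SD, n = 5) in non-tuft cells. Fzd3 followed at 2.35 ± 0.39 and 3.22 ± 0.94 (SD, n = 5 each), with an interval of the difference from -1.90 to 0.16 (95%, limma). Fzd9 was at 2.91, 1.61, 1.62, 2.23 and 0 in the non-tuft libraries and at 0.52, 0.76, 0, 0 and 0 in the tuft libraries. Both groups overlap there because of non-tuft library 5, and without both libraries numbered 5 Fzd9 passed as lower (difference -1.77, adjusted p = 0.0366, limma). Fzd1, Fzd5, Fzd6, Fzd7 and Fzd8 did not exceed 3.16 in any library.

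The Lgr receptors were among the most abundant members. Lgr5 (chromosome 10, 114887367 to 115024836) was at 6.02, 5.82, 5.06, 5.16 and 5.68 in tuft libraries 1 to 5. In the non-tuft libraries it was at 1.94, 4.26, 4.55, 2.77 and 0.22, so the non-tuft libraries were far more scattered and their highest value was still below the lowest tuft value. The difference was 2.80 (standard error 0.71, adjusted p = 0.0212, limma), or 6.96-fold on the RPKM + 1 scale, and the exact two-sided permutation p was 0.00794, the smallest that 5 against 5 libraries allow. The call was borderline: the adjusted p was 0.0543 to 0.0552 when non-tuft library 1, or any of tuft libraries 1, 2 and 5, was left out, and 0.0850 with 0.1 added to each RPKM in place of 1. Without both libraries numbered 5 the difference was 2.13 (adjusted p = 0.0713). A second annotated gene, RP23-43M12.1, overlaps Lgr5 on the other strand.

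Its paralog Lgr4 had the second highest level of the members in tuft cells, at 6.09 ± 0.70 (SD, n = 5) in tuft cells and 5.82 ± 0.86 (SD, n = 5) in non-tuft cells. Their difference of 0.27 had an interval from -0.81 to 1.36 (95%, adjusted p = 0.786, limma), so a change of 4-fold was outside it. The ligases Znrf3 and Rnf43 had differences of -0.31 and -0.61, with intervals from -1.62 to 0.99 and from -2.15 to 0.93. Rnf43 was at 0.72 in tuft library 4 and between 2.64 and 4.94 in the other 9 libraries.

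Secreted Wnt inhibitors were low and patchy. Of Sfrp5, Dkk3, Sfrp1 and Sfrp4, none passed (smallest adjusted p 0.512, limma). Sfrp5 varied most: in the tuft libraries it was at 0, 2.05, 5.67, 0 and 4.46, and in the non-tuft libraries at 3.45, 0.17, 0.23, 0 and 4.11. The interval of its difference, from -1.72 to 3.41, is wide enough to hold a change of 4-fold in tuft cells. Sfrp4, a gene of connective tissue, was above the floor only in non-tuft library 5, at 3.81. Sfrp1 reached 2.53 in non-tuft library 3, 1.41 in non-tuft library 5 and 2.45 in tuft library 5 and was at the floor in the others.

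None of the 6 cytoplasmic transducers passed, with differences from -1.32 for Axin1 to 0.84 for Dvl1. Apc, the scaffold of the destruction complex, was at 5.31, 4.45, 3.83, 4.14 and 3.92 in the tuft libraries and at 3.41, 3.60, 3.59, 4.79 and 3.55 in the non-tuft libraries. Tuft values were above those of 4 non-tuft libraries and overlapped with non-tuft library 4. Its difference of 0.54 had an interval from -0.39 to 1.47 (adjusted p = 0.486, limma). Axin1 was listed at 0 in tuft library 1 and between 3.61 and 5.26 in the other 9 libraries (adjusted p = 0.323), and the interval of its difference, from -2.99 to 0.35, holds a 4-fold decrease. Axin2, a scaffold gene that is itself a target of β-catenin in many tissues, was at 2.74, 3.33, 0.92, 2.09 and 1.91 in tuft and 3.66, 3.38, 1.08, 2.94 and 0 in non-tuft libraries. Its difference of -0.02 had an interval from -1.57 to 1.53 (adjusted p = 0.992). Dvl1, Dvl2 and Dvl3 had differences of 0.84, -0.10 and 0.00. The protein-coding gene Tas1r3 overlaps Dvl1 on the other strand.

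Of the TCF/LEF factors, Tcf7l2 was the most abundant and the steadiest, at 3.82 ± 0.27 (SD, n = 5) in tuft and 3.25 ± 0.68 (SD, n = 5) in non-tuft cells. The interval of its difference was from -0.32 to 1.46 (adjusted p = 0.434, limma). Tcf7l1, which mostly acts as a repressor, was at 3.49, 3.29, 2.92, 3.98 and 2.12 in the tuft libraries. Non-tuft libraries 1 and 2 had 2.59 and 3.10, and non-tuft libraries 3, 4 and 5 were at the floor. The difference of 2.02 (standard error 0.68) did not pass (adjusted p = 0.0754). The adjusted p was 0.0469 with non-tuft library 1 left out and 0.0244 with non-tuft library 2 left out. Tcf7 did not exceed 2.23 in any library.

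**Figure D4:**
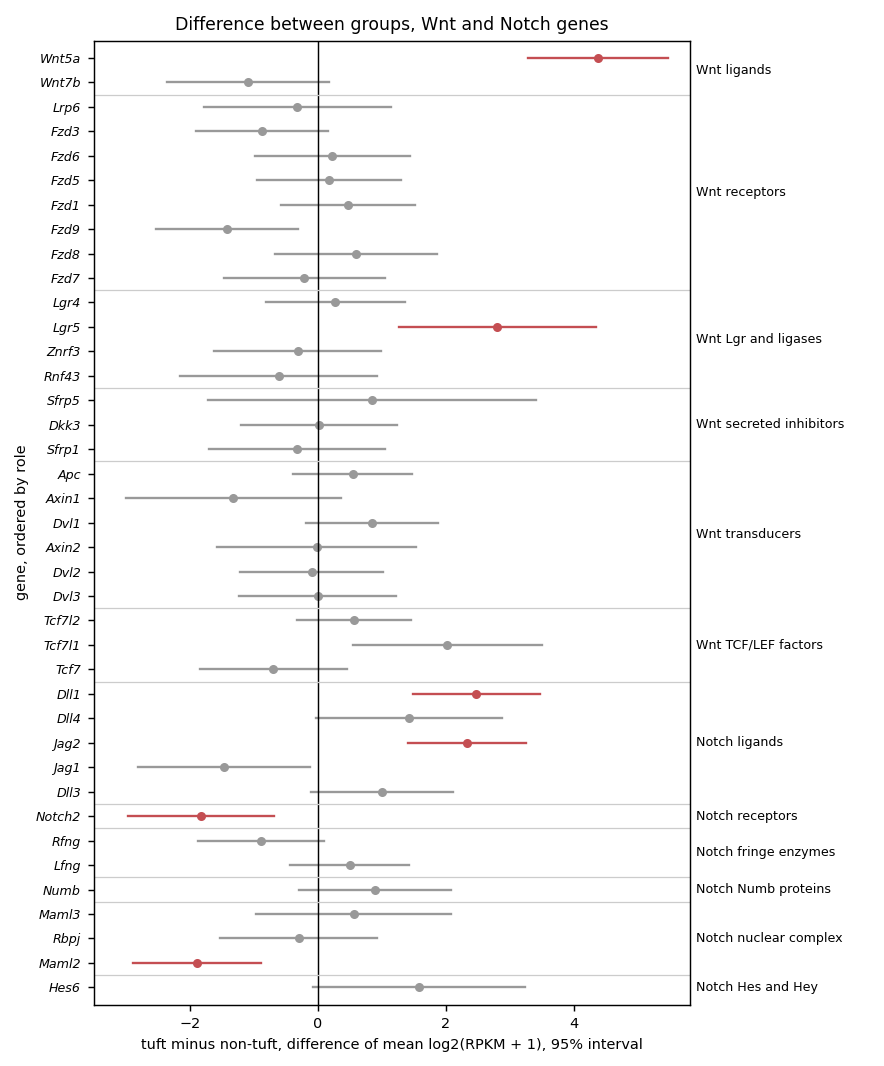
Difference of the mean log2(RPKM + 1) between tuft and non-tuft libraries (points) with its 95% interval from limma (lines) for the 39 members with neither group wholly at the floor, ordered by role; red marks an adjusted p under 0.05. Wnt5a, Lgr5, Dll1 and Jag2 lie to the right of 0 and Notch2 and Maml2 to the left, and the receptors, transducers and secreted inhibitors of the Wnt pathway are all gray.

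Of the 17 members in the Notch pathway, 2 passed as higher, both ligands, and 3 as lower, beside 6.19% and 5.55% of all genes. Of 5 ligands, 2 were called higher, beside 4.32% of all genes. Counts over so few genes describe these genes only. Dll1 (chromosome 17, 15504318 to 15513836), a Delta ligand, was at 3.36, 2.43, 2.69, 3.84 and 3.10 in tuft libraries and at 0, 0.17, 1.47, 1.43 and 0 in non-tuft libraries. The lowest tuft value was above the highest non-tuft value, and the difference was 2.47 (standard error 0.46, adjusted p = 0.00357, limma), or 5.54-fold on the RPKM + 1 scale. Leaving out each library in turn gave differences of 2.28 to 2.68. The noncoding gene A930024N18Rik overlaps Dll1 on the other strand.

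Jag2 (chromosome 12, 114146801 to 114167706), a Jagged ligand, was at 3.05, 3.55, 2.20, 2.42 and 2.11 in tuft libraries and at 1.25, 0.17, 0.30, 0 and 0 in non-tuft libraries. Again no library overlapped the other group, with a difference of 2.32 (standard error 0.43, adjusted p = 0.00332, limma) and a range of 2.10 to 2.55 with each library left out. On the RPKM + 1 scale this was 5.00-fold.

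Its relative Jag1 was at 0, 2.49, 0.95, 0 and 0.03 in tuft and 2.48, 2.80, 0.29, 2.82 and 2.39 in non-tuft libraries. Here the tuft libraries were mostly the lower ones, the groups overlapped, and the difference of -1.46 did not pass (adjusted p = 0.161, limma). Dll4 was above the floor in all 5 tuft libraries, at 1.51 to 3.74, and 3 of the non-tuft libraries were at the floor (adjusted p = 0.212). Dll3, an atypical ligand, was between 1.48 and 2.21 in tuft libraries 2, 3 and 5 and at 0 in the other tuft libraries (adjusted p = 0.253).

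Notch2 (chromosome 3, 97817461 to 97954290) was the more abundant of the listed receptors. It was at 1.16, 1.71, 0.97, 1.86 and 0.43 in tuft libraries and at 2.86, 2.39, 3.31, 4.71 and 1.97 in non-tuft libraries. All tuft values were below all non-tuft values, by a margin that was small between tuft library 4 and non-tuft library 5. The difference of -1.82 (standard error 0.53, adjusted p = 0.0403, limma) is below 4-fold. It did not pass, at adjusted p of 0.0587 to 0.106, when any of non-tuft libraries 1, 3 and 4 or of tuft libraries 1, 2, 3 and 5 was left out, nor without both libraries numbered 5 (0.0676). Notch3, a receptor typical of mural cells, was at 2.95 in non-tuft library 4, at 0.23 in non-tuft library 3 and at the floor elsewhere (adjusted p = 0.501).

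Fringe enzymes, which add sugars to Notch and tune its response to ligands, did not pass. Rfng was at 3.54 ± 0.63 (SD, n = 5) in tuft and 4.43 ± 0.68 (SD, n = 5) in non-tuft cells (adjusted p = 0.246, limma), and Lfng had a difference of 0.49 with an interval from -0.43 to 1.42. Numb, an inhibitor of Notch, was at 3.08, 2.46, 2.89, 1.38 and 3.08 in tuft and 2.04, 2.31, 1.38, 2.67 and 0 in non-tuft libraries, with overlap (adjusted p = 0.345).

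Of the nuclear complex, Rbpj itself had a difference of -0.30 with an interval from -1.52 to 0.93 (adjusted p = 0.793, limma). Maml2 (chromosome 9, 13424434 to 13513832), a Mastermind coactivator, was at 0.56, 1.35, 0, 0.56 and 0 in tuft libraries and at 1.76, 1.55, 2.33, 2.83 and 3.45 in non-tuft libraries. No library overlapped the other group, and the difference was -1.89 (standard error 0.46, adjusted p = 0.0170), below 4-fold. It passed with any 1 library left out, and did not pass without both libraries numbered 5 (difference -1.50, adjusted p = 0.0796). Maml3 was at 4.36, 2.66, 2.66, 3.37 and 1.79 in tuft and 0, 1.86, 3.32, 3.54 and 3.33 in non-tuft libraries (adjusted p = 0.670).

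Among the listed Hes and Hey genes, Heyl was called lower. Heyl (chromosome 4, 122910799 to 122927118) was at 1.13, 2.39, 2.42, 2.21 and 3.01 in non-tuft libraries 1 to 5 and was listed at 0 in all 5 tuft libraries. The adjusted p was 0.00286 (limma) and at most 0.00897 with any library left out, and no fold change is given because the tuft group is entirely at 0. Heyl could be listed only through its non-tuft values, so these p-values are not independent of the filter on RPKM variance. Hey1 was at 2.47, 2.00 and 2.52 in non-tuft libraries 2, 3 and 4 and at 0 in the others of both groups (adjusted p = 0.132). Hes7, the segmentation clock repressor, was at 4.14, 1.24 and 2.18 in non-tuft libraries 2, 3 and 5 and at 0 in the rest (adjusted p = 0.189). Neither passed.

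Hes6, a family member that counters Hes1 and favors differentiation, was the most abundant of the 46 genes in tuft cells. It was at 5.66, 6.53, 7.16, 6.81 and 7.41 in tuft libraries and at 3.64, 2.64, 6.51, 6.07 and 6.78 in non-tuft libraries, with non-tuft libraries 1 and 2 well below the rest. Its mean in tuft cells was at percentile 95.6 of all listed genes. The difference of 1.58 had an interval from -0.07 to 3.24 (adjusted p = 0.220, limma). By mean level in tuft cells the order was Hes6 (6.71), Lgr4 (6.09), Lgr5 (5.55), Wnt5a (4.94) and Apc (4.33), and neighbors in this order overlapped between libraries. These 5 were the members with a mean of at least 4 in tuft cells, and in non-tuft cells there were 4, namely Lgr4 (5.82), Hes6 (5.13), Axin1 (4.69) and Rfng (4.43).

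Other pathway genes were taken from lists that do not overlap the members. Of 39 other Wnt pathway genes, 2 passed as higher and 3 as lower, beside 6.19% and 5.55% of all genes. Prickle2, a planar polarity gene, had no non-tuft value above the floor and was at 5.15, 3.96, 3.48, 1.41 and 3.45 in tuft libraries (adjusted p = 0.00166, limma). It could be listed only through these tuft values. Ctnnbip1, an inhibitor of β-catenin binding to TCF, passed below 4-fold, with a difference of 1.87 (adjusted p = 0.0179). Sostdc1, a secreted Wnt and BMP inhibitor, was at 4.28, 5.95, 1.92, 3.82 and 4.49 in non-tuft libraries and did not exceed 0.53 in tuft libraries (adjusted p = 0.00101). Tle6, of the Groucho family, was lower by 2.13 on the log2 scale (difference -2.13, adjusted p = 0.00752), and the kinase gene Csnk1g1 passed below 4-fold (difference -1.79, adjusted p = 0.0158).

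Of 40 other Notch pathway genes, 2 passed as higher and 1 as lower, again beside 6.19% and 5.55% of all genes. The one that fell was Rbpjl, an acinar paralog of Rbpj that works in the Ptf1a complex and not in Notch signaling, at 5.53 to 6.31 in non-tuft and 0 to 2.13 in tuft libraries (difference -5.25, adjusted p = 2.86e-05, limma). Those that rose, Snw1 and Hdac1, are general nuclear cofactors, with differences of 1.74 and 1.89 (adjusted p = 0.0215 and 0.0413). The protease genes that cut Notch (Adam10, Adam17 and the γ-secretase genes) were not among those that passed. Median differences were 0.03 for the Wnt list and 0.12 for the Notch list.

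Target and fate genes came from short lists chosen with earlier results of these data known, so the counts describe these genes only. Over all genes, 4.32% were called higher and 3.99% lower. Of 14 Wnt target genes, Ascl2 was called higher and Ccnd1, Ccnd2 and Tnfrsf19 lower, with a median difference of -0.86. The list holds no members, so its median leaves out Lgr5 (difference 2.80), Axin2 (-0.02), Znrf3 (-0.31) and Rnf43 (-0.61). The median therefore depends on how the list was cut. Nkd1, which is in the list, had a difference of 2.75 and did not pass (adjusted p = 0.175, limma). Ascl2, a stem cell factor downstream of Wnt in the intestine, was at 6.16, 7.05, 7.25, 6.59 and 7.08 in tuft libraries and at 4.56, 0.17, 4.19, 5.00 and 4.46 in non-tuft libraries. No library overlapped the other group (difference 3.15, standard error 0.78, adjusted p = 0.0181, limma). The adjusted p was 0.0534 without tuft library 3 and 0.0765 without both libraries numbered 5. The G1 cyclin gene Ccnd1 was at 0.62 to 2.51 in tuft and 3.39 to 6.29 in non-tuft libraries (difference -3.48, adjusted p = 0.00205). Ccnd2 had a difference of -2.97 (adjusted p = 0.00212), and Tnfrsf19, the receptor Troy, was listed at 0 in all 5 tuft libraries and at 3.82, 3.42, 3.44, 3.10 and 0.98 in non-tuft libraries (adjusted p = 0.00219). Tnfrsf19 could be listed only through its non-tuft values. Oraov1 overlaps Ccnd1 on the other strand.

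Of 8 Notch target and fate genes, 3 were called lower (3.99% of all genes were), namely Hes1, Id3 and Ccnd1, which both target lists hold. The median difference was -1.17. Hes1 (chromosome 16, 30064470 to 30067882), the main Hes gene of Notch signaling in the pancreas, was at 2.26, 3.94, 0.95, 2.78 and 1.90 in tuft and 4.33, 4.34, 5.36, 5.87 and 5.70 in non-tuft libraries. All tuft values were below all non-tuft values, and the difference was -2.75 (standard error 0.56, adjusted p = 0.00617, limma; 0.0533 without both libraries numbered 5). Id3, an inhibitor of bHLH factors, had a difference of -2.84 (adjusted p = 0.00251).

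**Figure D5:**
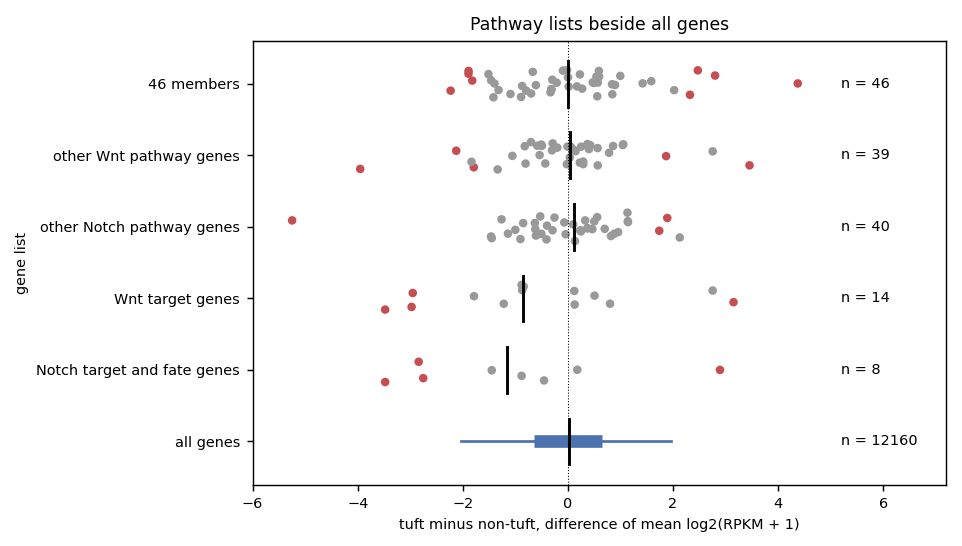
Difference of the mean log2(RPKM + 1) between tuft and non-tuft libraries for each gene (points, red for an adjusted p under 0.05). Rows are the members and 4 other lists, which hold no members, with list medians (black lines). The bottom row gives all 12160 genes as the 25 to 75 percentile (thick bar, -0.65 to 0.65), the 5 to 95 percentile (thin bar, -2.04 to 1.97) and the median of 0.02; the medians of the target lists, -0.86 and -1.17, lie to the left of it.

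The normalization of the authors sets the scale of all these directions. Centring each library on its 80 ribosomal protein genes instead moved the median difference of all genes from 0.02 to 0.74, and the share of higher genes among those called from 52.0% to 82.3%. Under it, Wnt5a, Lgr5, Jag2, Dll1, Tcf7l1 and Dvl1 passed as higher and Heyl alone as lower, and Notch2, Maml2 and Wnt4 stayed lower but did not pass (adjusted p of 0.159, 0.110 and 0.186, limma).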

How the data were processed

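HISAT2 placed the 50 bp single-end reads on mm9, and StringTie and Ballgown gave RPKM. Genes whose RPKM variance was below 1 had been dropped by the authors before log2 and quantile normalization. The deposited values are log2(RPKM + 1) for 12160 genes in 10 libraries. The authors' ratio of the groups, their p-values and adjusted p-values are also in the table and were not used.

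Groups came from the sample titles. All genes were fitted with lmFit and eBayes of limma 3.58.1 (R 4.3.3), without covariates, after a check on simulated data. The exact permutation test runs over all 252 assignments of libraries to groups. Intervals are 95%. The smallest exact p is 0.00794. The groups share 5 mice, but nothing in the sources used here says that equal numbers mark 1 mouse, so the fit without covariates treats libraries as independent.

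Genes named are the members that were called, that passed or whose groups did not overlap (with the floor set to 0), the highest member of each role, and called genes of the other pathway lists. Further members were picked for the text with their values in view. A result of the Notch target and fate list is not reported here. Members and lists were chosen with earlier results of these data known. Summed marker levels are sums of 2 to the level, minus 1. Gene positions are from GENCODE vM1 (mm9). Alternatives were a replicate block, other added constants, a minimum mean of 2, ribosomal centring, trend and robust settings, other thresholds and each library left out; a common floor and leaving out both libraries numbered 5 were chosen after seeing the data. Python 3.11.15, pandas 2.3.3 and matplotlib 3.10.9 made the tables and figures.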

Additional observations from a re-analysis of the deposited data

Results flagged for a closer look

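In 6 of 52 groups of 5 libraries, 1 library lay far from the other 4 by Dixon's ratio at the 95% level. For normally distributed values chance does so in about 1 of 20 groups. Flagged groups such as Wnt5a and Jag2 in non-tuft and Sostdc1 in tuft hold floor values, so that rate need not apply. Wnt5a was at 2.44 in non-tuft library 5 and at most 0.22 in the other non-tuft libraries. Apc reached 4.79 in non-tuft library 4, the others lying between 3.41 and 3.60. Jag2 was at 1.25 in non-tuft library 1 and at most 0.30 in the others. Ascl2 was at its floor of 0.17 in non-tuft library 2, the others lying between 4.19 and 5.00. Sostdc1 was at 0.53 in tuft library 1 and at most 0.14 in the other tuft libraries. Tnfrsf19 was at 0.98 in non-tuft library 5, the others lying between 3.10 and 3.82.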

How the results depend on the processing

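Wnt5a, Jag2 and Dll1 passed as higher and Heyl as lower under every alternative in which they were tested (18 for Wnt5a and 17 for the others, which fall under the minimum mean of 2), and no gene named here that passed changed direction. All alternatives drew on the same listed genes, and Heyl was listed only through its non-tuft values. Jag2 and Dll1, low in the non-tuft libraries, were listed mainly through their tuft values. With 10 added before log2, 278 genes were called over all genes, 0 members higher and 0 lower, and 5 members passed; the larger constant shrinks the fold changes that the threshold of 4 acts on. With 0.1 added, 3 members were called lower. With a minimum mean of 2, which leaves 20 members to test, 2 were called higher and 0 lower, and 3 passed. Ribosomal centring left 0 called lower, and no fold threshold or a threshold of 2 gave 4 lower each. With each library left out, 841 to 1010 genes were called over all genes, 3 to 5 members higher and 1 to 3 lower, and 5 to 10 passed. The lower count was 3 without non-tuft library 2, and 2 when tuft library 2 or any of non-tuft libraries 1, 3 and 5 was left out; 5 members passed without tuft library 1, 2 or 5. Without both libraries numbered 5, 5 passed. The cause was not tested for the other changes of count.

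The replicate number as a block gave 1009 called genes, 4 members higher, 1 lower and 7 that passed, and of the members that passed only Wnt4 no longer did. Deviations of libraries with the same number correlated at 0.06 to 0.24 across genes, and those with different numbers at -0.17 to 0.14. Of 5 tuft libraries, 3 correlated best with their own number. These values do not settle whether equal numbers mark 1 mouse. The numbers were not taken as pairs because the sources used here do not state it.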

Other observations

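Non-tuft libraries varied more than tuft libraries at these genes. The standard deviation over libraries was larger in the non-tuft group for 31 of the 46 members, with a median of 1.02 against 0.66 in tuft cells, and over all genes the medians were 0.90 and 0.71. The members were also low genes: 15 of 46 were above the floor in all 10 libraries, against 50.2% of all genes, and the floor held 27.8% of member values in tuft and 24.8% in non-tuft libraries, against 18.2% and 19.0% of all values.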
